A study of Mus musculus with 6 samples.

Results

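Lysosomes are acidic organelles in which cells break down protein, sugar chains, lipids and engulfed material. Soluble hydrolases do the cutting, heavily glycosylated membrane proteins line the organelle, and a multi-subunit proton pump, the vacuolar ATPase, keeps its inside acid. Macrophages of obese fat are rich in lysosomes, in which they degrade lipid taken up from adipocytes. MiT/TFE transcription factors, among them TFEB, TFEC and MITF, switch on many lysosomal genes through a shared promoter element. The genes described here are a fixed list of 53 names for these hydrolases, membrane proteins, regulators and pump subunits. The list holds 52 distinct genes, because Limp2 is an older name of Scarb2. Probes were assigned to them through the RefSeq accession that the scanner tables give, which matched 64 of 55681 probes to 51 of the 52 genes. No probe was matched to Cd68, and it is not analysed here. All 51 genes stood well above background on each of the 6 arrays, among 25777 genes and transcripts that entered the comparison.

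The samples were stromal vascular fractions of mesenteric fat, the mixed non-adipocyte cells that collagenase frees, with red cells lysed. They came from male C57BL/6JHamSlc-ob/ob mice, which lack functional leptin and become obese in both groups. The propolis group received Brazilian propolis ethanol extract, a bee product, by intraperitoneal injection over 12 weeks, 2 times weekly at a dose of 100 mg/kg, and the vehicle group received dilute DMSO and ethanol. Each group had 3 samples that the labels call biological replicates, with no statement of the mice per sample or of their age, and no lean mice are among the groups. Levels are log2 intensities on 1-colour arrays relative to the array's 75th percentile, so 1 unit is a 2-fold difference, and every ± is an SD over the 3 arrays of a group.

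Vehicle 1, vehicle 2, propolis 1 and propolis 2 shared a slide and scan, called slide 1 here, and vehicle 3 and propolis 3 shared slide 2. Between 61.1% and 66.7% of spots stood well above background. Stromal progenitor markers had mean levels of 6.44 to 6.87 on the 6 arrays, and macrophage markers 3.61 to 4.08. Vehicle 2 stood apart with pancreatic acinar markers (3 of 7 measured) at 5.54, against -5.14 to -4.20 on the other arrays. Of these, Cpb1 was well above background on only 2 vehicle arrays and 1 propolis array, and Amy2a5 on 2 of each. Vehicle 3 stood apart with intestinal epithelial markers (6 of 7 measured) at 5.30, against -3.00 to 0.66. B cell markers (4 of 5 measured) were at 2.45 on vehicle 2 and 0.40 on vehicle 1, against -2.41 to -1.39 elsewhere. Because these are mixed cells, fewer cells of a type and less RNA per cell cannot be told apart.

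A part of the members share a sequence element in their promoters, which were taken from RefSeq on GRCm38.p6. Each promoter spans the 250 bases before to 50 bases after a start. A promoter was found for 46 of the 52 genes. The E-box core CACGTG, read the same on both strands, was present in 34.8% of these genes and in 8.09% of all 27025 genes with a promoter. Extended by 1 base, it becomes TCACGTG, which reads CACGTGA on the other strand and is a form that TFEB and its relatives can bind. This form was present in 14 of 46 genes, or 30.4%, against 4.29% of all genes and 3.77% of all 32851 promoters. The palindrome TCACGTGA was present in 6 genes, Atp6v0d1, Atp6v1a, Ctsa, Ctsd, Gla and Mcoln1, or 13.0%, against 1.12% of all genes. The same palindrome lengthened by a G before it and a C after it was in 0 of the 46 genes and in 0.37% of all genes. These motifs are nested, so a promoter with a longer one holds the shorter ones too. The windows below, 5′ to 3′ on the gene's strand, show the element in capitals in 9 members from each kind: hydrolases, membrane proteins, the calcium channel and the pump.
Gaa (chr11:119267798-119267852, plus strand): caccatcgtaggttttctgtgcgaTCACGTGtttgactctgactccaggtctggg
Naglu (chr11:101069996-101070050, plus strand): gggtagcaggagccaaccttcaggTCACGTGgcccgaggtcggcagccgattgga
Gla (chrX:134601169-134601224, minus strand): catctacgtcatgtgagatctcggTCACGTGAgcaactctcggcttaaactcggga
Lgmn (chr12:102439112-102439166, minus strand): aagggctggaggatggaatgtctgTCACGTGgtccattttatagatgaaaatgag
Ctsd (chr7:142387895-142387950, minus strand): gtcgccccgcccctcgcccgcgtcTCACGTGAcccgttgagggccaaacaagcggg
Arsa (chr15:89477425-89477465, minus strand): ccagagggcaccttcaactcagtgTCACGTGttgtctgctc
Lamp1 (chr8:13159075-13159129, plus strand): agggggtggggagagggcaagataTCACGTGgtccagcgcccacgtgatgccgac
Mcoln1 (chr8:3500449-3500504, plus strand): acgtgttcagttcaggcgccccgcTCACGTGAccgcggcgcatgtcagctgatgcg
Atp6v1a (chr16:44139360-44139415, minus strand): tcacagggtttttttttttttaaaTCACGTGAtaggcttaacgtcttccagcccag

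The element in capitals begins 141 bases before the start in Gaa, 74 in Naglu, 195 in Gla, 50 in Lgmn, 99 in Ctsd, 17 in Arsa, 46 in Mcoln1 and 132 in Atp6v1a. A further site begins 228 bases before the start in Gla, 245 in Ctsd and 72 in Mcoln1. Lamp1 holds the element 4 times, beginning 62, 45, 28 and 16 bases before the start, and the window printed reaches the first and second. Of the 14 genes with a site, 6 hold more than 1. A match describes the letters of the sequence and does not show that a factor binds there.

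The comparison of propolis with vehicle asked whether the level of these genes in the stromal cells differed after the treatment. Of the 51 lysosomal genes, 0 passed limma's test at an adjusted p under 0.05, where 215 of all 25777 genes, or 0.834%, did, 0.722% in the higher and 0.113% in the lower direction. At an unadjusted limma p under 0.05 there were 6, Manba, Gaa and Lamp2 with higher and Mitf, Atp6v1b2 and Psap with lower means, or 11.8%, against 11.7% of all genes. Each direction held 3 of the 51, where 7.24% of all genes were higher and 4.48% lower. With array weights limma called 7 of them, Arsa, Atp6v1b2, Gaa, Manba, Mitf, Psap and Tfec, where 12.5% of all genes were called. That fit gave vehicle 1 a weight of 8.28 and propolis 3 a weight of 0.292.

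The lysosomal genes had a median log2 difference of 0.088, where all genes had -0.0041. Means were higher after propolis for 32 and lower for 19, where 49.6% of all genes were higher. More genes were higher than lower in 18 of 20 alternatives, with 33 and 18 under normexp background correction and 34 and 17 on slide 1 alone. Quantile scaling gave 26 higher and 25 lower, and leaving out vehicle 2 gave 25 higher and 26 lower with a median of -0.0034. Leaving out vehicle 2 and vehicle 3 together gave 21 higher and 30 lower. With 1 array left out at a time, the sign of the difference turned for 19 of the 51 genes. It cannot turn in this way for a gene whose groups do not overlap. The groups did not overlap for 10 of the 51 genes, or 19.6%, against 17.4% of all genes. Among these 10, 7 were higher after propolis (Manba, Gaa, Lamp2, Scarb2, Lgmn, Arsa and Ppt1) and 3 lower (Mitf, Atp6v1b2 and Gm2a), where 10.8% of all genes were apart and higher and 6.62% apart and lower. Leaving out vehicle 2, vehicle 3 or propolis 3 raised that count to 18, 16 and 20, while the share over all genes went to 22.5%, 35.3% and 41.8%.

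The precision of the arrays bounds these differences. For 37 of the 51 genes, or 72.5%, the 95% interval of the difference lay wholly within 2-fold in either direction, as it did for 56.9% of all genes. A difference over 1 log2 unit was fitted for 1 lysosomal gene, Tfec, or 1.96%, against 7.69% of all genes. For the other 14 genes a 2-fold difference is not excluded by the interval, and Tfec, Ctsc and Sgsh had the widest upper bounds, at 2.21, 1.75 and 1.41.

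**Figure D1:**
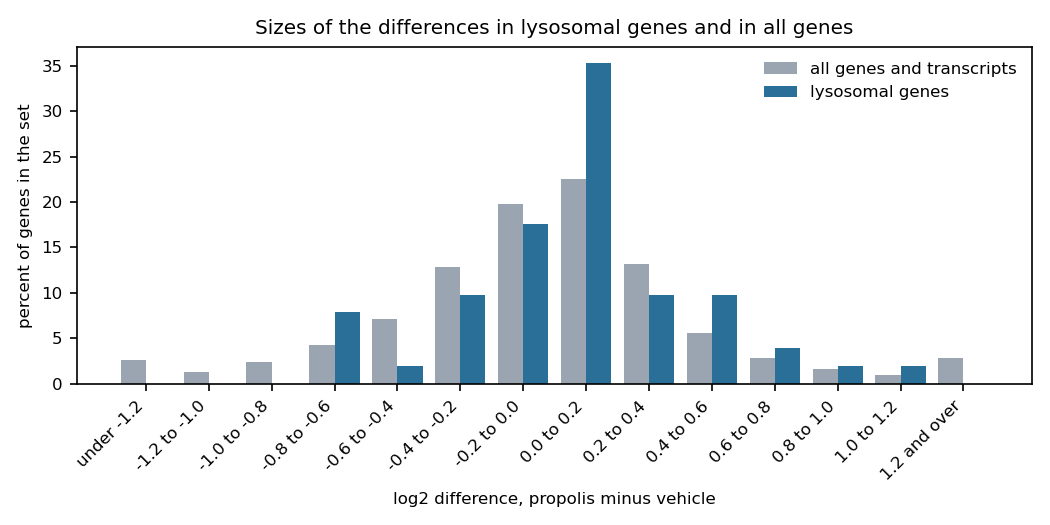
Percent of genes (vertical axis) by log2 difference between propolis and vehicle (horizontal axis, bins of 0.2), for all 25777 genes and transcripts in grey and the 51 lysosomal genes in blue. The bin from 0.0 to 0.2 holds 35.3% of the lysosomal genes and 22.5% of all genes, and 0 lysosomal genes lie under -0.8.

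**Figure D2:**
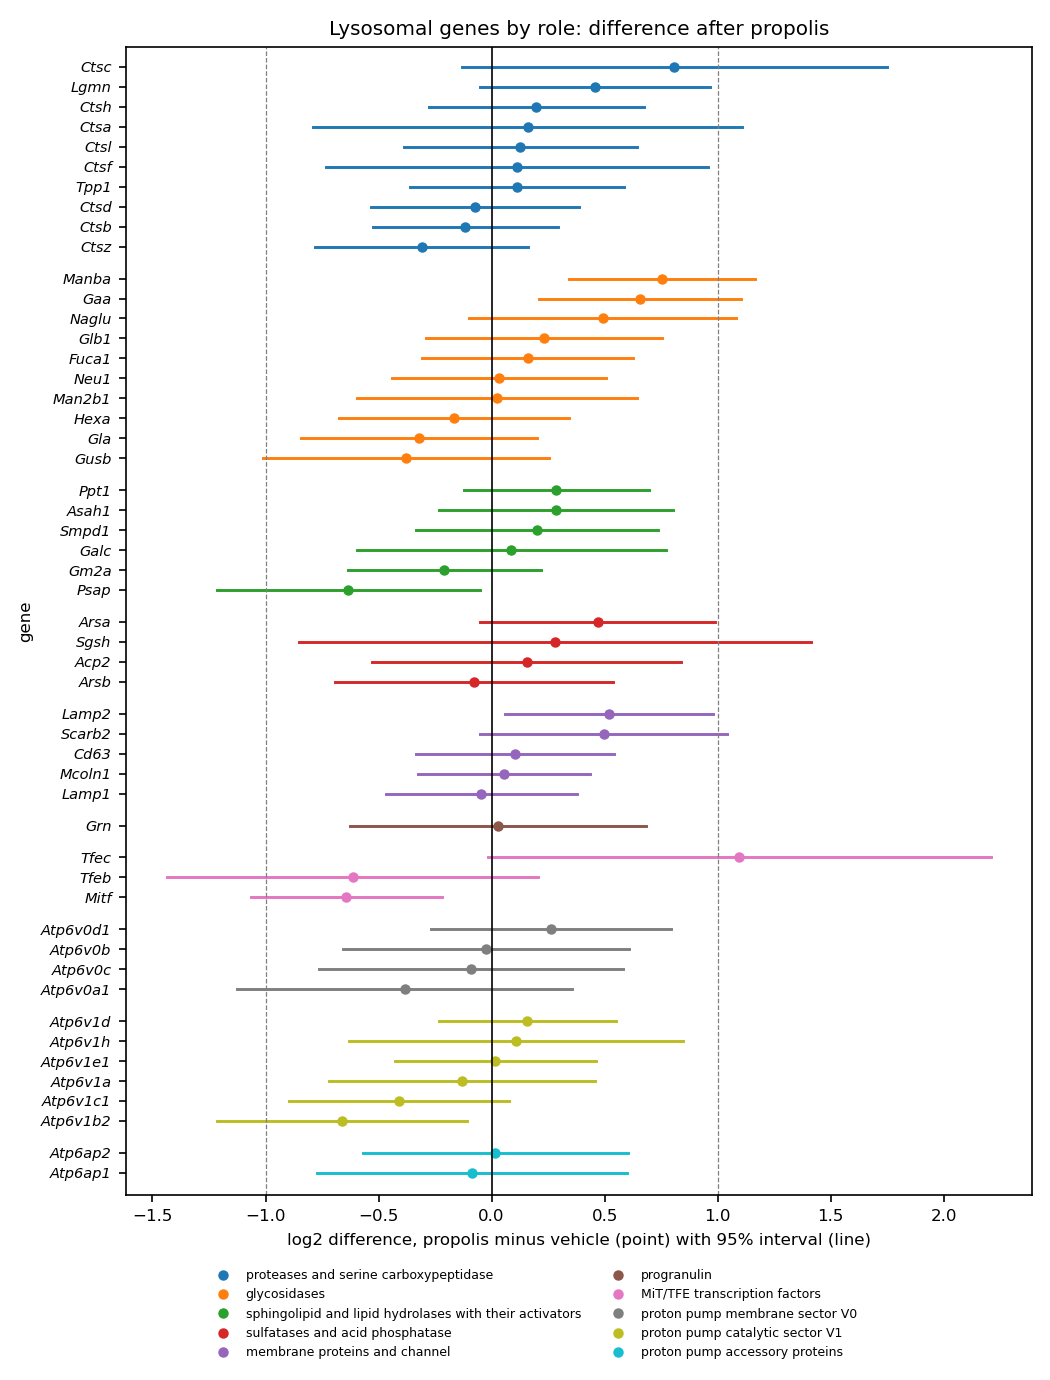
Fitted log2 difference, propolis minus vehicle (point), with its 95% interval (line) for each of the 51 lysosomal genes, coloured by role, with dashed lines at a 2-fold difference. The intervals of Manba, Gaa, Lamp2, Mitf, Atp6v1b2 and Psap leave out 0, and 0 of the 51 genes passed after adjustment over all genes.

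The proteases of the lumen include the cysteine cathepsins, the aspartic protease cathepsin D, legumain and tripeptidyl peptidase 1. Of 10, 7 had higher and 3 lower means, 0 passed, and their median difference was 0.12. Lgmn encodes legumain, the asparaginyl endopeptidase that trims other lysosomal proteases into their active forms. It lay at 7.15, 6.60 and 6.96 in vehicle 1, 2 and 3 and at 7.44, 7.47 and 7.16 in propolis 1, 2 and 3. The groups were separated by a narrow gap between vehicle 1 and propolis 3, and the difference of 0.46 (SE 0.21) had a limma adjusted p of 0.479.

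Ctsc encodes cathepsin C, which activates granule serine proteases. It was at 4.56, 4.12 and 4.05 in vehicle and at 5.54, 5.41 and 4.20 in propolis. Propolis 1 and 2 were high and propolis 3 lay inside the vehicle range, so the difference was 1.13 on slide 1 and 0.16 on slide 2 (0.81 over both, limma adjusted p = 0.506). Ctsb, which encodes cathepsin B, an abundant cysteine protease, lay at 7.94, 7.68 and 7.85 in vehicle and 7.58, 7.82 and 7.72 in propolis. Its difference of -0.12 has a 95% interval of -0.52 to 0.29. The remaining proteases, Ctsa, Ctsd, Ctsf, Ctsh, Ctsl, Ctsz and Tpp1, had differences from -0.31 for Ctsz to 0.20 for Ctsh on their brighter probes, with groups that overlapped. A dimmer probe of Ctsd, the cathepsin D gene, was at 3.78, 3.44 and 4.34 in vehicle and 2.39, 2.50 and 4.03 in propolis. Its difference was -0.88, against -0.074 on the brighter probe, and propolis 3 lay inside the vehicle range.

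Ctsa and Sgsh differed between the slides. Ctsa encodes cathepsin A, a carboxypeptidase that also shields beta-galactosidase and neuraminidase from degradation. It was at 5.79, 5.83, 5.90 and 6.02 on the 4 arrays of slide 1 and at 4.82 and 5.01 on the 2 arrays of slide 2. Sgsh, encoding the sulfamidase that trims heparan sulfate, was at 6.18, 6.24, 6.64 and 6.57 on slide 1 and at 5.21 and 5.25 on slide 2. In a limma fit of slide beside treatment these were the 2 lysosomal genes past an adjusted p of 0.05 for slide (adjusted p = 0.0301 and 0.0270), 3.92% of the members against 3.42% of all genes. Ctsa also had a dimmer probe, which lay at 0.22, -0.058 and -0.31 in vehicle and at -0.073, 0.33 and -0.32 in propolis. Its lowest arrays were also those of slide 2, by a smaller margin than on the brighter probe. The dimmer probe of Sgsh showed no such drop, with 2.34, 2.27, 1.81 and 2.66 on slide 1 and 2.19 and 2.45 on slide 2.

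The glycosidases, which remove sugars from glycoproteins, glycolipids and glycogen, held Manba, the member with the lowest p. Of 10, 7 had higher and 3 lower means, 0 passed and the median was 0.096. Manba encodes beta-mannosidase, which takes the last mannose off N-linked sugar chains. It was at 2.35, 2.19 and 2.51 in vehicle and at 3.08, 3.21 and 3.01 in propolis. All 3 propolis arrays were above all 3 vehicle arrays, by a gap larger than the spread of either group, with a fitted 1.69-fold difference (SDs 0.16 and 0.10, log2 difference 0.75, SE 0.17). Its limma adjusted p was 0.142, and with 1 array left out the difference ran from 0.67 to 0.83.

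Gaa encodes acid alpha-glucosidase, which degrades glycogen. Its brighter probe was at 5.01, 4.88 and 5.03 in vehicle and 5.37, 5.74 and 5.79 in propolis, a difference of 0.66 (SE 0.19, limma adjusted p = 0.227) without overlap. A dimmer probe to the same transcript went the other way, with -2.28, -2.14 and -1.37 in vehicle and -3.55, -3.12 and -0.27 in propolis, a difference of -0.38 with overlapping groups. On the dimmer probe vehicle 3 and propolis 3, both of slide 2, were the highest of their groups. The direction of Gaa therefore rests on which probe is read, and the mean over both was 0.14. Naglu, encoding the N-acetylglucosaminidase of heparan sulfate breakdown, was at 2.35, 2.11 and 2.65 in vehicle and 2.49, 2.96 and 3.13 in propolis, with overlap at vehicle 3 and propolis 1 (difference 0.49, limma adjusted p = 0.524).

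Gla, encoding alpha-galactosidase A, which degrades globo-series glycolipids, was at 8.09, 8.18 and 7.63 in vehicle and 7.44, 7.79 and 7.70 in propolis. Vehicle 3 lay within the propolis range, and the difference was -0.52 on slide 1 and 0.074 on slide 2. Gusb, the beta-glucuronidase gene, had a difference of -0.38, and Hexa, Glb1, Neu1, Man2b1 and Fuca1 had differences from -0.17 to 0.23, all with overlapping groups. The dimmer probe of Fuca1, encoding alpha-fucosidase, went the other way, at -0.20 against 0.16.

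Sphingolipid breakdown needs both hydrolases and small activator proteins that lift the lipid out of the membrane. Of 6 genes, 4 had higher and 2 lower means and 0 passed. Psap encodes prosaposin, the precursor of the saposins, which activate the hydrolases of glucosylceramide, galactosylceramide and sulfatide. It lay at 7.14, 6.59 and 7.12 in vehicle and 6.07, 6.26 and 6.62 in propolis. The lowest vehicle array, vehicle 2, and the highest propolis array, propolis 3, overlapped narrowly, and the difference was -0.63 (6.95 ± 0.31 to 6.32 ± 0.28, SE 0.24, limma adjusted p = 0.384), -0.70 on slide 1 and -0.50 on slide 2. Gm2a, encoding the activator for ganglioside GM2, had non-overlapping groups with lower propolis values on its brighter probe (difference -0.21), while its dimmer probe had a difference of 0.54.

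Ppt1, encoding the thioesterase that removes palmitate from proteins, was at 0.752, 0.636 and 0.873 in vehicle and 0.973, 1.196 and 0.951 in propolis. The groups did not overlap, yet the difference of 0.29 had a 95% interval of -0.12 to 0.69. Asah1 (acid ceramidase), Smpd1 (acid sphingomyelinase) and Galc (galactosylceramidase) had differences of 0.28, 0.20 and 0.088, and the dimmer probe of Asah1 gave 0.38.

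Among the sulfatases and the acid phosphatase, 3 of 4 had higher means and 0 passed. Arsa, encoding arylsulfatase A, which removes sulfate from sulfatide, was at 3.744, 3.550 and 3.799 in vehicle and 3.834, 4.467 and 4.199 in propolis. Vehicle 3 and propolis 1 were nearly level, and the difference of 0.47 (SE 0.22) had a limma adjusted p of 0.480. Sgsh, in which slide 2 stood below slide 1, had a difference of 0.28 with an SE of 0.47. Acp2, a lysosomal acid phosphatase gene, and Arsb, encoding arylsulfatase B, had differences of 0.16 and -0.077, and the probes of Arsb disagreed in direction.

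**Figure D3:**
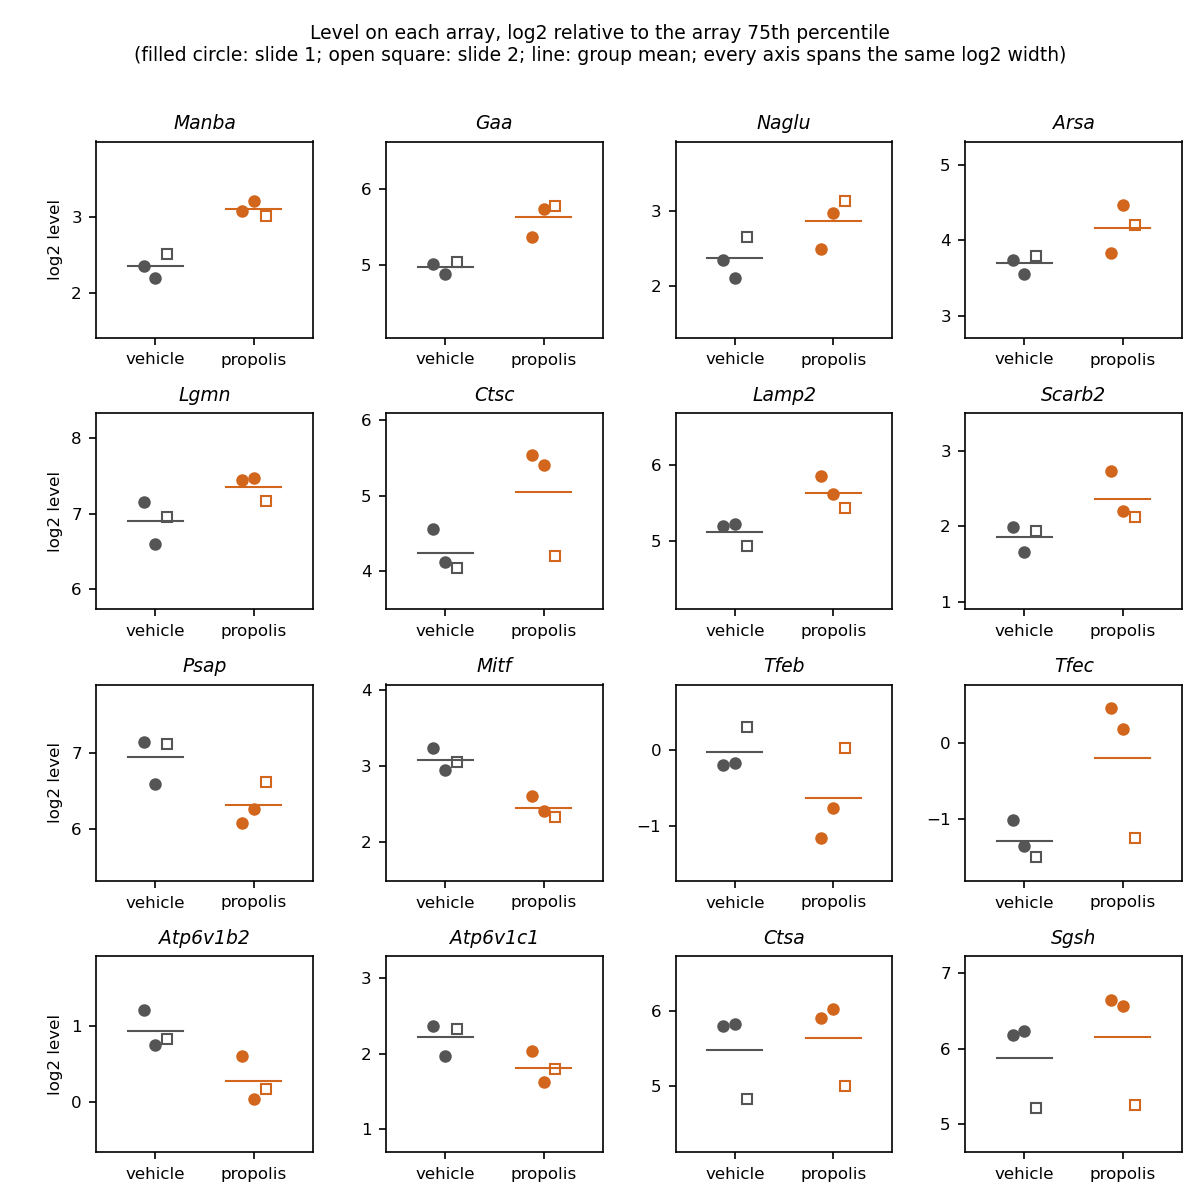
Level of 16 lysosomal genes on each array (vertical axis, log2 relative to the array's 75th percentile, the same width in every panel) in vehicle (grey) and propolis (orange), with slide 1 as filled circles, slide 2 as open squares and lines at group means. Manba and Mitf show separated groups, propolis 3 lies near vehicle for Ctsc and Tfec, and slide 2 lies lowest in both groups for Ctsa and Sgsh.

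Of the membrane proteins and the calcium channel, 5 were measured, of which 4 had higher and 1 lower means, and 0 passed. Lamp2, whose product lines the lysosome and is needed for autophagosomes to mature, was at 5.20, 5.22 and 4.93 in vehicle and 5.85, 5.63 and 5.44 in propolis. All propolis arrays lay above all vehicle arrays, and the difference was 0.53 on slide 1 and 0.50 on slide 2 (0.52 over both, SE 0.19, limma adjusted p = 0.367). A dimmer probe to another Lamp2 transcript gave 0.23. Scarb2 encodes LIMP-2, the membrane receptor that carries glucocerebrosidase to the lysosome. It was at 1.98, 1.66 and 1.93 in vehicle and 2.74, 2.21 and 2.12 in propolis, without overlap, and its difference was 0.65 on slide 1 and 0.19 on slide 2 (limma adjusted p = 0.477).

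Lamp1, the close relative of Lamp2, had a difference of -0.046 (95% interval -0.47 to 0.38), and the tetraspanin gene Cd63 one of 0.10 (-0.33 to 0.54). Mcoln1 encodes the lysosomal calcium channel TRPML1. It was at 3.32, 3.23 and 3.46 in vehicle and 3.36, 3.38 and 3.44 in propolis, a difference of 0.055 with a 95% interval of -0.33 to 0.44. Grn, encoding progranulin, a secreted protein that is cut into granulins in the lysosome, was at 5.94, 5.47 and 6.12 in vehicle and 5.46, 6.17 and 5.98 in propolis, with a difference of 0.028. The sign for Mcoln1 turned under quantile scaling, and that for Grn under quantile scaling and without vehicle 2, propolis 2 or propolis 3 (and without vehicle 2 and vehicle 3 together).

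The 3 MiT/TFE transcription factors on the list had means in different directions. Tfe3, a further gene of the family that is not on the list, had a difference of 0.064 (limma adjusted p = 0.928). Mitf, which in macrophages serves differentiation and lysosomal gene expression, was at 3.24, 2.95 and 3.06 in vehicle and 2.60, 2.40 and 2.32 in propolis. Every propolis array was below every vehicle array, and the difference was -0.64 (3.08 ± 0.15 to 2.44 ± 0.14, SE 0.17), 1.56-fold lower, with a limma adjusted p of 0.211. The second Mitf probe had a difference of -0.68, but its vehicle 3 level, 1.55, lay within the propolis values of 1.48, 1.66 and 1.18.

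Tfeb, the best known driver of lysosomal genes, was at -0.19, -0.17 and 0.30 in vehicle and -1.16, -0.77 and 0.027 in propolis. In both groups the slide 2 array was the highest, and propolis 3 lay inside the vehicle range (difference -0.61, SE 0.34, limma adjusted p = 0.575). Tfec, a family member restricted mainly to macrophages, was at -1.02, -1.36 and -1.51 in vehicle and 0.47, 0.19 and -1.25 in propolis. Propolis 1 and 2 were above all vehicle arrays and propolis 3 was among them, so the difference was 1.51 on slide 1 and 0.26 on slide 2 (1.10 over both, limma adjusted p = 0.435). Without propolis 3 the difference was 1.62 at a limma adjusted p of 0.0677, and over all alternatives that p ran from 0.0351 with array weights to 1.00.

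Among members with a promoter and a probe, the 14 that hold TCACGTG had a median difference of 0.20, with 9 higher and 5 lower. The 31 without it had a median of 0.032, with 20 higher and 11 lower. The shares of higher genes are close, and within the 6 genes that hold TCACGTGA 3 were higher and 3 lower. These counts take each gene's brightest probe, and the part of the element in the differences was not tested.

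The proton pump has a membrane sector, V0, through which protons pass, and a cytosolic sector, V1, which hydrolyses ATP. Of 12 subunit and accessory genes 5 had higher and 7 lower means, 0 passed, and the median difference was -0.056. It was 0.11 on slide 1 and -0.32 on slide 2. Atp6v1b2 encodes the B subunit of the catalytic head found in most tissues and in macrophages. It lay at 1.22, 0.75 and 0.83 in vehicle and 0.60, 0.042 and 0.17 in propolis. The groups did not overlap, and the difference was -0.66 on each slide (0.93 ± 0.25 to 0.27 ± 0.29, SE 0.23, limma adjusted p = 0.330). Atp6v1c1, encoding the C subunit that joins the sectors, was at 2.36, 1.98 and 2.33 in vehicle and 2.03, 1.62 and 1.79 in propolis, with overlap at vehicle 2 and propolis 1 (difference -0.41, limma adjusted p = 0.516).

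The other V1 genes, Atp6v1a, Atp6v1d, Atp6v1e1 and Atp6v1h, had differences from -0.13 to 0.16, all with overlap. In the V0 sector, Atp6v0a1, encoding a form of the large a subunit, was at 4.27, 3.72 and 4.70 in vehicle and 3.85, 3.52 and 4.16 in propolis, and Atp6v0d1, encoding the widely expressed d subunit, at 3.336, 2.957 and 3.616 and at 3.679, 3.423 and 3.597. The groups overlapped for both, with differences of -0.39 and 0.26. Atp6v0b and Atp6v0c, which encode proteolipid subunits of the rotor ring, had differences of -0.024 and -0.093, and the accessory genes Atp6ap1 and Atp6ap2 of -0.088 and 0.016. Each of these 4 changed sign when 1 array was left out. For 10 of the 12 pump genes the 95% interval lay within 2-fold in either direction.

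The members also varied between arrays of the same group. Relative to each gene's mean over the 6 arrays, the median lysosomal gene lay at -0.26 on vehicle 2, where the median over all genes was 0.0084, and between -0.0034 and 0.11 on the other 5 arrays. Vehicle 2 was also the array with the lowest macrophage marker mean, 3.61 against 3.92 to 4.08, and the one with pancreatic markers. Its B cell marker mean was the highest, at 2.45, with vehicle 1 next at 0.40. The part of these in the low lysosomal values of vehicle 2 was not tested. Pump genes were highest on vehicle 3, at 0.21, and lowest on propolis 2 and vehicle 2, at -0.19 on both. The hydrolases and activators stood at 0.15 on propolis 2 and at -0.26 on vehicle 2.

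**Figure D4:**
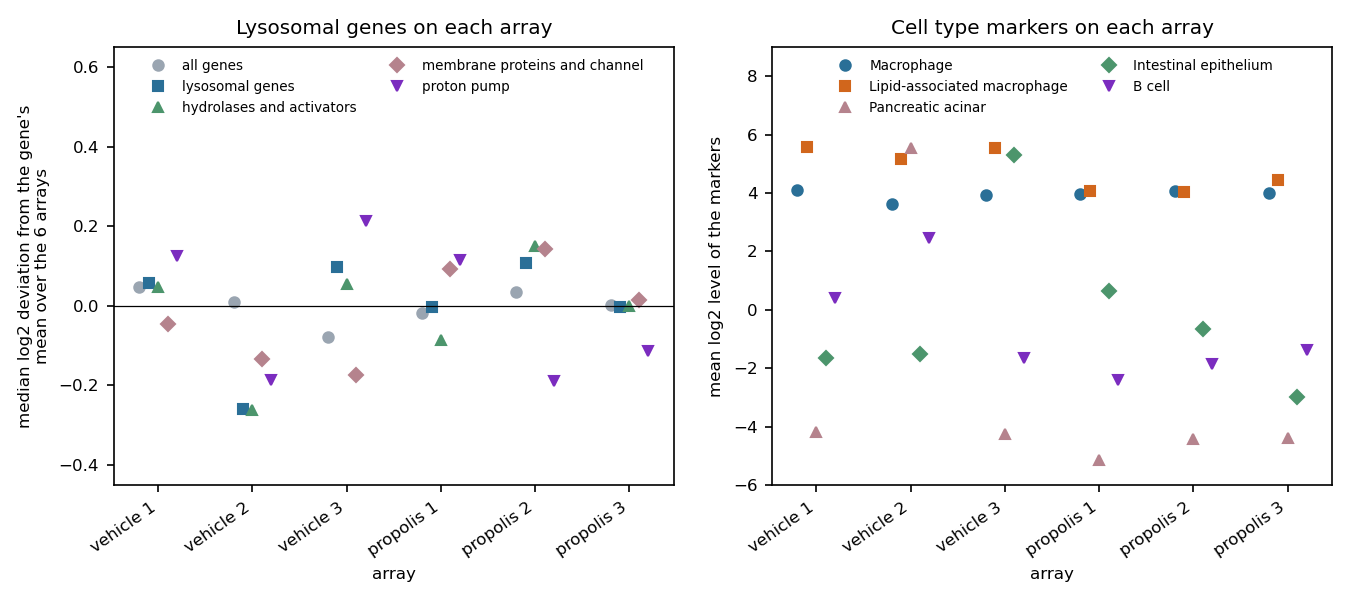
Left, median log2 deviation from each gene's own mean over the 6 arrays, for all genes and for groups of lysosomal genes. Right, mean log2 level of cell type markers on the same arrays, in which vehicle 2 stands out for pancreatic markers (5.54) and vehicle 3 for intestinal markers (5.30), and the median lysosomal gene is lowest on vehicle 2 (-0.26).

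Macrophages are rich in lysosomes, so their markers are given beside the members. The general macrophage list, 10 of 10 measured, had a mean level of 3.61 to 4.08 in vehicle, and the propolis arrays lay inside that range at 3.96 to 4.06. The list of lipid-associated macrophage genes, 8 of 8 measured, had a mean of 5.16 to 5.59 in vehicle and 4.05 to 4.46 in propolis, without overlap, and Mmp12, Lgals3 and Itgax in it fell (limma adjusted p = 0.0307, 0.0405 and 0.0405). With the replicate number as a block these were 0.0509, 0.0853 and 0.0570, and with slide as a block 0.0173, 0.0429 and 0.0227. In fits with each array left out in turn, the lowest limma adjusted p was 0.0265 for Mmp12, 0.0718 for Lgals3 and 0.0525 for Itgax. All 8 genes of that list had lower means, and those besides these 3 did not pass. Trem2 among them had a difference of -0.49 with overlapping groups (limma adjusted p = 0.627). Mesothelial markers, 7 of 7 measured, lay at -0.14 to 1.19 in vehicle and 1.90 to 2.85 in propolis. The part of either in the lysosomal values was not tested. The median difference was -1.23 for the lipid-associated list and 0.088 for the lysosomal genes.

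Neighbouring genes of the pathway that are not on the list were read in the same fit, and 0 of 97 measured passed a limma adjusted p of 0.05. Closest was Atp6v0d2, the d subunit form of osteoclasts and macrophages, at 3.45, 2.70 and 3.11 in vehicle and 1.45, 0.65 and 1.32 in propolis. The groups were far apart, and the difference of -1.95 (SE 0.30) had a limma adjusted p of 0.0519. It passed in 6 of 20 alternatives, among them normexp background correction (0.0327), quantile scaling (0.0433), the stricter filter (0.0437), the trended variance model (0.0333) and array weights (0.00518), and did not with any 1 array left out (0.0890 to 0.195). It also missed the threshold with the series table (0.0526), median centring (0.0550), the mean over probes (0.0588), slide as a block (0.0667), no filter (0.0888) and slide 1 alone (0.121). The widely expressed form Atp6v0d1, a member, had a difference of 0.26. Beside Atp6v0d2, the 8 other pump subunits outside the list of members had a median of -0.078, with 4 higher and 4 lower, and Atp6v0a2 had a difference of -0.34.

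Of 20 further hydrolases 8 had higher means, with a median of -0.036. Lipa, encoding lysosomal acid lipase, which frees cholesterol and fatty acids from lipoprotein lipid, was at 3.57, 3.01 and 3.56 in vehicle and 2.49, 2.30 and 2.89 in propolis (difference -0.83, limma adjusted p = 0.257). Acp5, the tartrate-resistant acid phosphatase gene of osteoclasts and macrophages, was at 6.33, 6.27 and 5.99 in vehicle and 5.34, 5.64 and 5.60 in propolis (difference -0.67, limma adjusted p = 0.220). Both had non-overlapping groups. All 5 cathepsins outside the list had lower means, with a median of -0.33. Ctss, encoding cathepsin S, which processes invariant chain in antigen-presenting cells, had a difference of -0.51 (limma adjusted p = 0.396), and Ctso one of -0.21.

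Of 21 other membrane and transport genes 12 had higher means, with Laptm4b at 0.99 (limma adjusted p = 0.346) and Laptm4a at 0.38. Mannose 6-phosphate sorting, which delivers new hydrolases to the lysosome, had a median of -0.012 over 9 genes, with the sorting receptor gene Sort1 at -0.50 (-0.28 as the mean over its probes) and Gnptab, which encodes part of the enzyme that makes the tag, at 0.51. Genes of nutrient sensing at the lysosome had a median of 0.12 over 15, with 10 higher, including Flcn at 0.47 and Rraga at 0.43. Autophagy genes had a median of 0.11 over 18, with 13 higher. Wipi1, which acts in autophagosome formation, was at 1.55, 1.46 and 1.64 in vehicle and 2.11, 2.26 and 2.29 in propolis. This was a separated 1.59-fold difference (log2 difference 0.67, limma adjusted p = 0.156). As the mean over its probes the log2 difference of Wipi1 was 0.49 (limma adjusted p = 0.469). Gabarapl1, of the family that coats autophagosome membranes, had a difference of 0.49 without overlap (limma adjusted p = 0.299).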

How the data were processed

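Per the file headers, the arrays were 1-colour (Cy3) Agilent mouse arrays designed on mm9, scanned and extracted by Feature Extraction, release 10.7.3.1. What was deposited for each array is a background-corrected brightness per spot, a linear intensity in arbitrary units. The series table deposited by the authors holds log2 values with each array's 75th percentile at 0, and served as an alternative input. Here the signal was turned to log2, non-uniform spots dropped, repeat spots of a probe averaged, and every array centred by subtracting its own 75th percentile (459.4 to 729.0 in intensity). Probes well above background on at least 3 of 6 arrays entered, and the brightest stood for its gene. Levels of different probes are not comparable. Symbols came from RefSeq accessions in a GRCm38.p6 table, and 28446 probes have none.

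The test was limma (version 3.58.1, R 4.3.3; lmFit and eBayes without a block), and p-values of the 25777 genes and transcripts were adjusted jointly by Benjamini-Hochberg, with 0.05 as the threshold. The script was tested on simulated data with independent arrays and no slide effect, so that test does not cover such effects here. An exact permutation p cannot fall below 0.1 with 3 arrays against 3, and the number of arrays limits the precision. The labels call the samples biological replicates but do not state the mice per sample. The p-values set each difference against the spread between these samples. How much of that spread lies between mice and how much is technical is not known. Named genes are the 12 members of lowest p, the 2 of lowest p in each role group, Tfeb, Tfec, Mitf and Mcoln1, the 2 brightest members (Gla and Ctsb), and the 2 of lowest p in each neighbouring list. Naglu, Gm2a, Ctsa, Tfe3, Mmp12, Lgals3, Itgax and Trem2 were added after their values were seen. The members and lists were chosen with earlier results of these data known. The alternatives covered background correction by normexp (on median signals), scaling, filter, probe rule, variance model, array weights, the series table, slide and replicate blocks, slide 1 alone, each array left out and the threshold. Added after seeing the data were leaving out population outlier spots and leaving out vehicle 2 and vehicle 3 together.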

Additional observations from a re-analysis of the deposited data

How the results depend on the processing

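Across the alternatives, 0 of 51 lysosomal genes passed except with array weights, which called 7. The median difference of the lysosomal genes moved most without vehicle 2 and vehicle 3 together, to -0.049, where 27 genes had non-overlapping groups (47.7% of all genes did) and limma called 0 of all genes (1 array against 3, the lone vehicle array assumed to vary like the others). Non-overlapping groups numbered 5 with normexp (14.9% of all genes) and 27 with slide 1 alone (60.4% of all genes), and 10 to 20 with 1 array left out. Over all genes limma called 106 without a filter, 3231 with array weights, 0 on slide 1 alone, 526 at a threshold of 0.1, and 11 to 94 with 1 array left out. With the replicate number as a block limma called 73 genes, 0 of them lysosomal. The deviations of same-numbered arrays correlated at 0.036, 0.29 and 0.14 over all genes, where not every value was over 0.1, and the numbers were not taken as pairs. Over the lysosomal genes alone they were 0.51, 0.39 and 0.73. On slide 1, vehicle 1 with propolis 2 was at 0.43 and vehicle 2 with propolis 1 at 0.26 over these genes. Arrays of different slides were at -0.68 to -0.45. The deviations were taken from each group's own mean, so these correlations depend on each other. The part of the slide in them was not tested. Atp6v0d2 reached a limma adjusted p of 0.0499 with the replicate number as a block. Signs turned in small differences. Quantile scaling gave -0.068 for Atp6ap2, -0.076 for Grn and -0.016 for Mcoln1. Without vehicle 2 and vehicle 3, Sgsh had -0.026, Atp6ap2 -0.19 and Grn -0.067. With 1 array left out, Atp6ap2 ran from -0.094 to 0.24, Grn from -0.16 to 0.23, Atp6ap1 from -0.31 to 0.17 and Sgsh from -0.054 to 0.73. The cause was not tested. All 51 genes stood well above background on every array, and the part of signal strength in these results was not tested.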
